A study of Mus musculus with 126 samples.

Results

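Pou5f1, Sox2, Nanog and Sall4, the transcription factor genes usually called the core pluripotency factors, were followed through the RNA-seq libraries of a study of DNA methylation and histone acetylation in mouse embryonic stem cells. They were chosen by name, as the 4 rows of the deposited count table that carry these symbols, and they are 4 of 23420 genes in that table and 4 of the 15822 genes that passed the low count filter and were tested. The series holds 126 samples, of which the 8 RNA-seq libraries were used, and the other 118 samples were not analysed here. All libraries came from J1 cells, a mouse embryonic stem cell line, kept on gelatin in serum with leukaemia inhibitory factor. Wild type cells were compared with cells labelled Dnmt1-/-, Dnmt3a-/-, Dnmt3b-/- TKO (triple knockout), which lack the enzymes that place and maintain methyl groups on DNA. Each genotype was exposed for 36 h either to Trichostatin A (TSA), an inhibitor of histone deacetylases, or to 0.0033% DMSO as the control. The labels give the dose of TSA as 5 ng/µl, and whether that unit is right, rather than per ml, could not be checked here. This gives 4 groups of 2 libraries, each named here by its genotype and treatment (TKO TSA, for example). Whether the TKO cells are 1 clone is not given in the sources used here.

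Pou5f1 encodes OCT4, a POU domain factor without which the inner cell mass of the embryo does not hold pluripotent cells. Sox2 encodes an HMG box factor that binds DNA next to OCT4 at composite OCT-SOX elements, and Nanog encodes a homeodomain factor whose level varies from cell to cell in serum cultures. Sall4 encodes a zinc finger factor that binds with OCT4 and NANOG and recruits deacetylase complexes. The factors activate one another's genes and many genes of the self-renewing state, and Pou5f1 is silenced with promoter DNA methylation when cells differentiate.

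The promoters are shown because both manipulated marks act there. Sequences were taken from RefSeq (GRCm38.p6) as the 250 bases before the gene's start (all 3 genes shown lie on the + strand). Of the 4 genes 3 were matched, and Sall4 was not. Capitals mark the motifs that were searched for on both strands, the OCT-SOX element (a SOX site beside an OCT site, with 1 free base), the octamer ATGCAAAT and the GC box GGGCGG, and matches on the opposite strand appear as their reverse complement. The windows are chr17:35505782-35506031 for Pou5f1, chr3:34649745-34649994 for Sox2 and chr6:122707315-122707564 for Nanog.
Pou5f1: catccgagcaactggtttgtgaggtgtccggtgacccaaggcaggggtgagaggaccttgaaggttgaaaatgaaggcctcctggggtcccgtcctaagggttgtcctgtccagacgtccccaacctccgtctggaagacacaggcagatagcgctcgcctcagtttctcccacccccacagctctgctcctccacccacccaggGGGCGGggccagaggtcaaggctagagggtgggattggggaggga
Sox2: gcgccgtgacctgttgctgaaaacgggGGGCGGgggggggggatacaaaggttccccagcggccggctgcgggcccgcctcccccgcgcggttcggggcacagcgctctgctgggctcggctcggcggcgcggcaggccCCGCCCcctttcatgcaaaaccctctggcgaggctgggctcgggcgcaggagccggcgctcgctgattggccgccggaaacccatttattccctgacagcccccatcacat
Nanog: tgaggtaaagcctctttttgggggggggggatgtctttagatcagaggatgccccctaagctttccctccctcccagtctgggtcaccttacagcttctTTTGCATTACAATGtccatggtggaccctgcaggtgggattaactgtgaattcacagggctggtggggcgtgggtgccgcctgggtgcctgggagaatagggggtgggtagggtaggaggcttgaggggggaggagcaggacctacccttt
The CG dinucleotide, the site of DNA methylation, occurred 8 times in the Pou5f1 window, 27 times in that of Sox2 and 2 times in that of Nanog, where the median over 32851 promoter entries of the same length was 6 and the quartiles were 2 and 16. The Nanog window held the OCT-SOX element on the - strand, 151 to 138 bases before the start. An exact match to the letters of that element, with 1 free base, was found in 2 of the 32851 entries, 0.00609%, and both were starts of Nanog. Of the 32 listed targets described below, 18 had promoter entries and 0 of these matched. Sites that differ in other letters, or lie outside the window, were not searched for, so the element cannot be called particular to Nanog. A GC box, the letters bound by SP factors, lay 45 to 40 bases before the Pou5f1 start, and the Sox2 window held 2 GC boxes. GC boxes were found in 32.7% of entries and the octamer in 1.6%. None of the 3 windows held the octamer. A match of letters is a description and not a bound site.

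Levels are given as normalised CPM, the count of a gene relative to its library total after scaling by trimmed mean of M-values (TMM) factors. Total counts were 13280631 to 15542527 per library, and each of the 4 genes had between 2804 and 13635 counts in each library, so the counting error of a single value was at most 1.89%. The 3 targeted genes were checked first. Dnmt1, Dnmt3a and Dnmt3b were lower in TKO DMSO than in wild type DMSO, by -1.78, -3.00 and -3.72 on the log2 scale (edgeR adjusted p 1.47e-06, 1.47e-06 and 5.36e-08), and reads from them remained in the TKO libraries. All 10 other stem cell markers of the list (Zfp42, Esrrb, Klf4, Utf1, Fgf4, Dppa5a, Tdgf1, Lin28a, Fut9 and Alpl) had more than 3 counts in every library, and 8 of the 10 fell with TSA in each genotype, as given with the other marker lists. The design text calls the libraries biological replicates, and no label names separate cultures, so the p-values measure the spread between libraries.

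Pou5f1 (chromosome 17, 35506032 to 35510777, 6 exons) was the member with the largest response to TSA. In wild type cells it stood at 935 and 890.1 CPM with DMSO and at 456 and 361 CPM with TSA. In TKO cells it stood at 932 and 948 CPM with DMSO and at 397 and 303 CPM with TSA. All 4 DMSO libraries were above all 4 TSA libraries, and the genotypes overlapped within each treatment. The means for wild type cells were 913 ± 31.7 CPM with DMSO and 409 ± 67.3 CPM with TSA, and those for TKO cells were 940.4 ± 11.3 and 349.7 ± 66.7 CPM (SD, n = 2). The order was therefore TKO DMSO, wild type DMSO, wild type TSA and TKO TSA, where the first 2 and the last 2 did not differ beyond their spread.

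Nanog (chromosome 6, 122707568 to 122713778, 4 exons) was the member with the largest difference between genotypes. Wild type cells had 237 and 265 CPM with DMSO and 185 and 190.5 CPM with TSA. TKO cells had 374.7 and 465 CPM with DMSO and 322 and 375.3 CPM with TSA. All 4 TKO libraries were above all 4 wild type libraries, the treatments were apart in wild type cells, and they overlapped in TKO cells. The means for wild type cells were 251 ± 20.2 CPM with DMSO and 188 ± 3.71 CPM with TSA, and those for TKO cells were 419.65 ± 63.6 and 349 ± 37.8 CPM (SD, n = 2).

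Sox2 (chromosome 3, 34650005 to 34652460, 1 exon) varied over a narrower range. Wild type libraries held 359 and 436 CPM with DMSO and 311 and 329 CPM with TSA, and TKO libraries held 475 and 485 CPM with DMSO and 404 and 316 CPM with TSA. The treatments did not overlap in either genotype, but the wild type DMSO and TKO TSA libraries did. The means for wild type cells were 397 ± 54.4 CPM with DMSO and 320.01 ± 13.1 CPM with TSA, and those for TKO cells were 480.1 ± 6.59 and 360.1 ± 62.4 CPM (SD, n = 2). No neighbouring pair in the order of its 4 groups passed the test. The long noncoding gene Sox2ot, in whose intron Sox2 lies, had 27 to 69 counts per library and shares no exon base with it in the table.

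Sall4 (chromosome 2, 168748332 to 168767201, 4 exons) reached 303 and 252 CPM in wild type cells with DMSO and 179 and 221 CPM with TSA. In TKO cells it reached 299.7 and 291 CPM with DMSO and 216 and 268 CPM with TSA. TSA libraries lay below DMSO libraries of the same genotype, and the genotypes overlapped in both treatments. The means for wild type cells were 277.5 ± 35.7 CPM with DMSO and 199.7 ± 29.5 CPM with TSA, and those for TKO cells were 296 ± 5.88 and 242 ± 36.6 CPM (SD, n = 2), and no neighbouring pair in this gene's order of groups passed the test.

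**Figure D1:**
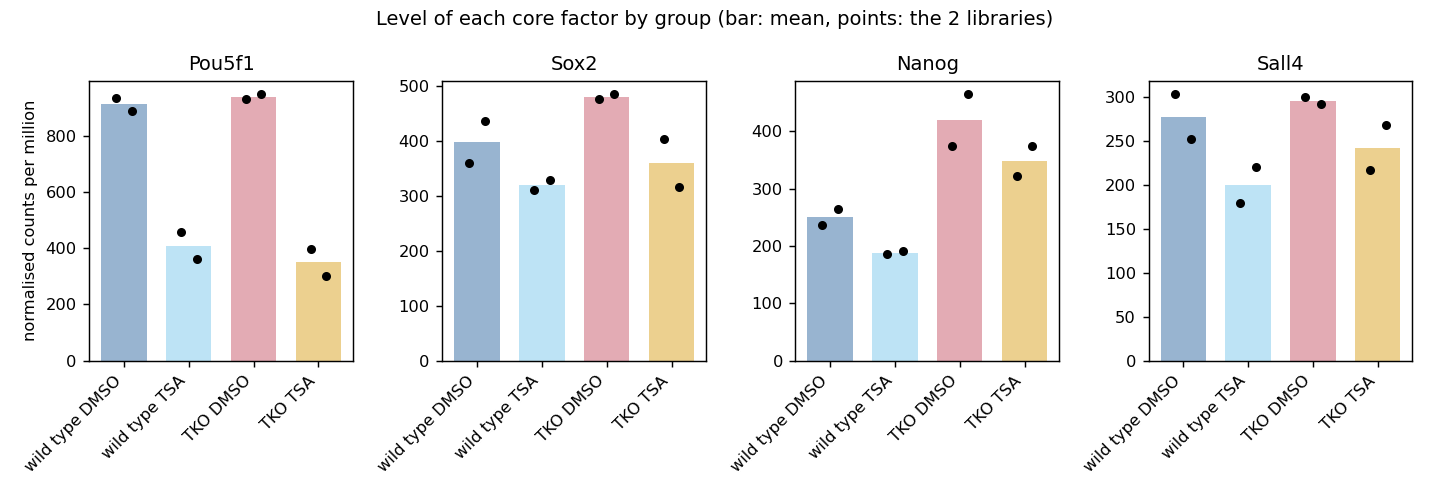
Normalised CPM of Pou5f1, Sox2, Nanog and Sall4 in the 4 groups, with a bar for the group mean and a point for each of the 2 libraries. The TSA libraries of Pou5f1 lie between 303 and 456 CPM, all below its DMSO libraries, and the TKO libraries of Nanog lie above its wild type libraries.

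The first question was how the core genes respond to blocked deacetylation where the methyltransferase genes are intact. In wild type cells TSA lowered 3 of the 4, where 25.9% of all tested genes were called lower and 52.8% were called in either direction. The libraries with and without TSA did not overlap for any of the 4 genes, nor for 77% of all tested genes. Pou5f1 fell 2.23-fold (log2 fold change -1.16 ± 0.14 SE, edgeR adjusted p 7.62e-05, lower in 2 of 2 libraries). Sall4 fell 1.39-fold (-0.48 ± 0.13, edgeR adjusted p 0.0118) and Nanog fell 1.34-fold (-0.42 ± 0.12, edgeR adjusted p 0.0127) under TMM scaling, and both calls were lost with upper quartile scaling or total counts. Sox2 had a log2 fold change of -0.31 ± 0.13 and did not pass (edgeR adjusted p 0.0549), with a 95% interval of -0.59 to -0.04. The median log2 fold change of all tested genes was 0.01. With total counts as the only scaling that median was 0.215, and relative to it the changes were -1.17 for Pou5f1, -0.49 for Sall4, -0.43 for Nanog and -0.32 for Sox2.

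Single libraries decided the smaller calls in wild type cells. Without the first wild type DMSO library Sall4 was at -0.34 (edgeR adjusted p 0.0855), and without the first wild type TSA library it was at -0.34 (0.0986). The call of Nanog was lost without the second wild type DMSO library (-0.34, edgeR adjusted p 0.0648) and without the first wild type TSA library (-0.40, 0.0568). Sox2 passed without the first wild type DMSO library (-0.45) and without either TKO TSA library. The TKO TSA libraries are not part of this comparison and enter through the shared spread, the scaling, the filter and the adjustment over all tested genes. The fall of Pou5f1 passed the test in each of the 8 fits that left out a library, with changes of -1.34 to -1.001 on the log2 scale.

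In TKO cells, whose DNA methylation was not measured in these libraries, TSA lowered 2 of the 4 genes. Of all tested genes 27.9% were called lower there and 58.7% in either direction. Libraries did not overlap for 3 of the 4 genes and for 82% of all tested genes. Pou5f1 fell 2.69-fold (log2 fold change -1.43, edgeR adjusted p 1.3e-05) and Sox2 fell 1.33-fold (-0.42, edgeR adjusted p 0.0143) under TMM, the latter not called with total counts. Nanog (-0.27, edgeR adjusted p 0.071, 95% interval -0.53 to -0.01) and Sall4 (-0.29, edgeR adjusted p 0.0844, 95% interval -0.58 to 0.01) did not pass. Sox2 was not called without either TKO DMSO library (-0.44 and -0.41, edgeR adjusted p 0.0519 and 0.0635) or without the second TKO TSA library (-0.25, 0.134). Leaving out that same TKO TSA library brought Nanog (-0.38, edgeR adjusted p 0.0432) and Sall4 (-0.45, 0.0298) past the threshold. Nanog also passed without the first TKO DMSO library (-0.42, edgeR adjusted p 0.0247). The second TKO TSA library held the lowest Pou5f1 value of all and the higher Nanog and Sall4 values of its pair.

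Whether the response differs between genotypes was tested by the interaction, the TSA change in TKO minus that in wild type. None of the 4 genes passed, where 1.35% of all tested genes did. The differences were -0.27 for Pou5f1 (95% interval -0.69 to 0.15, edgeR adjusted p 0.576), -0.10 for Sox2 (-0.49 to 0.29, 0.857), 0.15 for Nanog (-0.22 to 0.52, 0.756) and 0.19 for Sall4 (-0.23 to 0.60, 0.72). At an unadjusted p below 0.05 the count was also 0, and DESeq2 called 0 of the 4.

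The next question was how the genotypes differ without TSA. Loss of methylation and any other difference between the wild type and TKO cells cannot be told apart here. In DMSO 1 of the 4 genes differed between genotypes, where 20.4% of all tested genes were called and 9.62% were called higher. Nanog was 1.67-fold higher in TKO cells (log2 fold change 0.74, edgeR adjusted p 0.00155, higher in 2 of 2 libraries). Sox2 stood at 0.27 with non-overlapping libraries and did not pass (edgeR adjusted p 0.152, 95% interval 0.00 to 0.55), and 59.8% of all tested genes had non-overlapping libraries in this comparison. Pou5f1 (0.04, 95% interval -0.25 to 0.34, edgeR adjusted p 0.858) and Sall4 (0.09, -0.20 to 0.38, 0.686) did not pass either.

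Under TSA the genotypes also differed in Nanog alone, where 18.4% of all tested genes were called and 10% were called higher. Nanog was 1.86-fold higher in TKO TSA than in wild type TSA (log2 fold change 0.89, edgeR adjusted p 0.000708). The 2 genotype comparisons of Nanog use separate libraries, and each passed in all 8 fits that left out a library, with ranges of 0.58 to 0.89 in DMSO and 0.78 to 1.00 in TSA. Pou5f1 was at -0.23 (edgeR adjusted p 0.275), Sox2 at 0.17 (0.376) and Sall4 at 0.28 (0.173), and none of these passed.

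Cells with both changes were set against cells with neither. In TKO TSA, Pou5f1 was 2.61-fold below wild type DMSO (log2 fold change -1.38, edgeR adjusted p 1.16e-05), and Nanog was 1.39-fold above it (0.47, edgeR adjusted p 0.00481), where 30.2% and 31.7% of all tested genes were called lower and higher. Sox2 (-0.14, edgeR adjusted p 0.342) and Sall4 (-0.20, 0.221) did not pass, and with total counts the sign of Sox2 turned to 0.03. TKO cells with DMSO were also set against wild type cells with TSA. Each of the 4 genes was higher in TKO DMSO than in wild type TSA, by 2.30-fold for Pou5f1, 2.23-fold for Nanog, 1.50-fold for Sox2 and 1.48-fold for Sall4 (edgeR adjusted p 3.5e-05, 1.96e-05, 0.0022 and 0.00393), where 28% of all tested genes were called higher. These comparisons share libraries with those above.

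**Figure D2:**
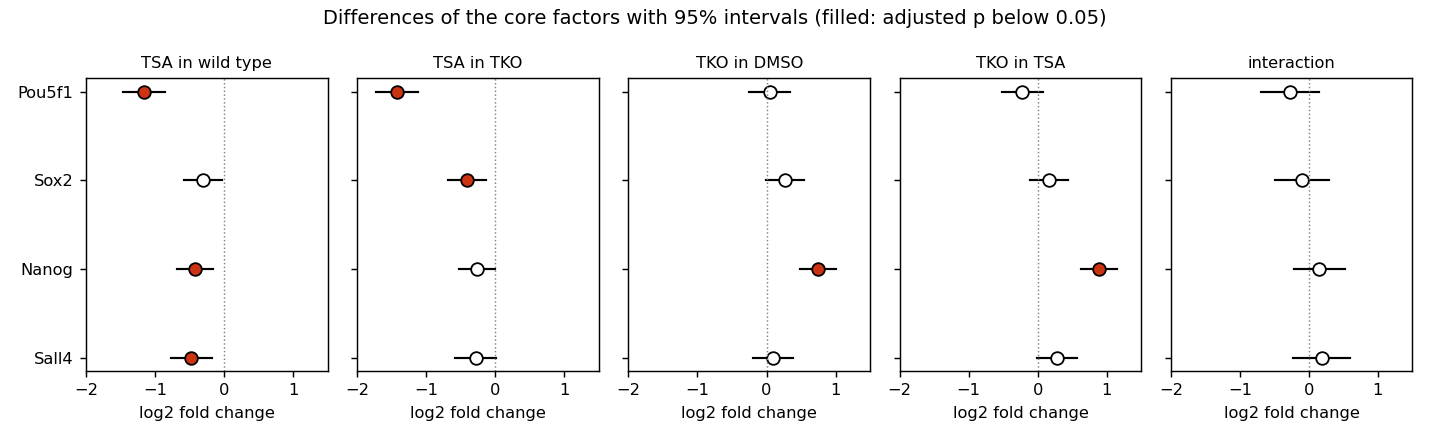
Log2 fold changes of the 4 genes in the 5 main comparisons, with lines for 95% intervals and filled points for an adjusted p below 0.05. Pou5f1 is filled in both TSA comparisons (-1.16 and -1.43), Nanog in both TKO comparisons (0.74 and 0.89), and no gene in the interaction.

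The balance between the factors was read within each library, per kb of exon, which needs no scaling between libraries. Per kb, Pou5f1 was the most abundant of the 4 in wild type DMSO at 632 CPM per kb, with Nanog at 185, Sox2 at 162 and Sall4 at 54.7. The ratio of Pou5f1 to Nanog in wild type cells was 3.71 and 3.15 with DMSO and 2.32 and 1.78 with TSA. In TKO cells it was 2.34 and 1.92 with DMSO and 1.16 and 0.758 with TSA. The ranges of wild type TSA and TKO DMSO overlapped, those of wild type DMSO and TKO TSA stood apart, and in 1 TKO TSA library Nanog exceeded Pou5f1. The ratio of Pou5f1 to Sox2 was 3.33 to 4.43 in the DMSO libraries and 1.63 to 2.50 in the TSA libraries. The ratio of Nanog to Sall4 was 2.92 to 3.93 in wild type libraries and 4.68 to 5.96 in TKO libraries. Sox2 to Sall4 showed no such split, with 2.45 to 3.57 in wild type DMSO and 2.43 to 3.86 in TKO TSA. Pou5f1 made up 59.3% and 63.0% of the summed level of the 4 genes per kb in wild type DMSO and 31.4% and 38.2% in TKO TSA, where Nanog made up 33.0% and 41.4%.

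**Figure D3:**
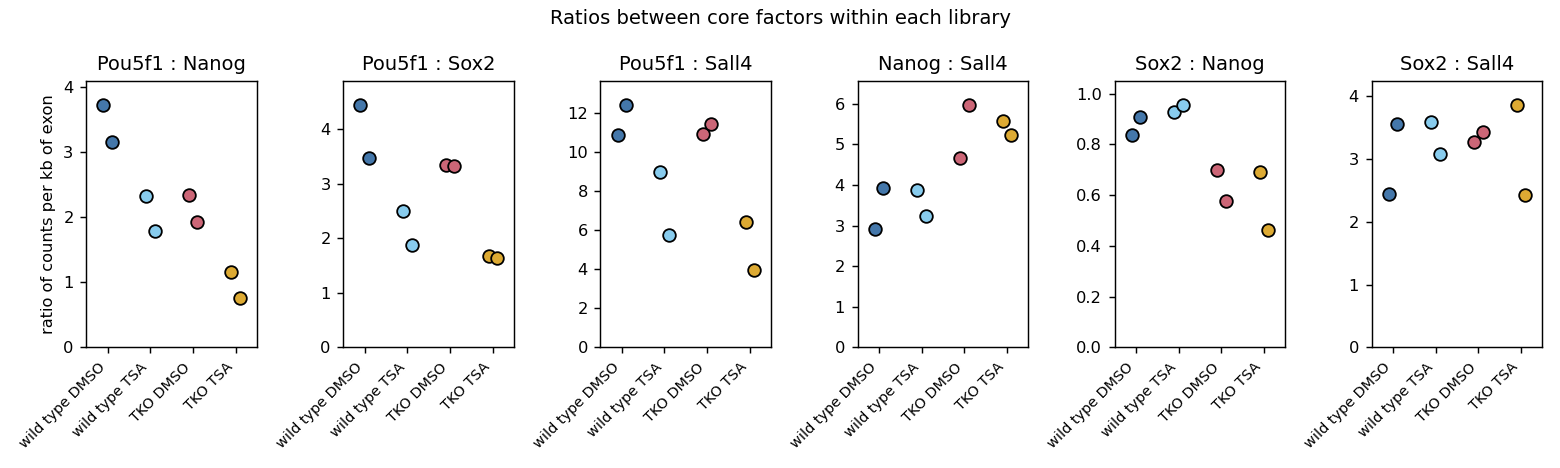
Ratios of counts per kb of exon between pairs of the 4 genes, 1 point per library, for each genotype and treatment. Pou5f1 to Nanog falls from 3.15 and 3.71 in wild type DMSO to 0.758 and 1.16 in TKO TSA, while Sox2 to Sall4 overlaps between all groups.

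Across the 8 libraries, log2 levels of Pou5f1 and Sox2 had a Pearson r of 0.745, Nanog and Sox2 of 0.660, and Pou5f1 and Nanog of 0.272, as a description over libraries that share treatment, genotype and scaling. Among the 10024 tested genes that averaged 10 CPM or more, those most like Pou5f1 were Zbtb8a (r 0.9995, 99.0 ± 3.23 CPM with DMSO and 22.3 ± 6.73 CPM with TSA in wild type cells, SD, n = 2), Phc1, a polycomb subunit gene (0.998), and Fbxo22 (0.997). Those most like Nanog were Khdc3 (0.988), Gna13 (0.985) and Ninl (0.985). Khdc3, a gene of the egg and early embryo, stood at 19.9 ± 7.47 CPM in wild type DMSO and 104 ± 28.0 CPM in TKO DMSO (SD, n = 2). Those most like Sall4 were Zfp574 (0.976), Ubap2 (0.974) and Rnmtl1 (0.956). Sox2 was closest to a gene whose symbol the table holds as a date (0.981), Ndufv2 (0.979) and AA987161 (0.979).

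The paralogues show how each family member fared beside the core gene. The 3 other SALL genes, zinc finger factors of limb, kidney and neural development, all fell with TSA in both genotypes. Of all tested genes 25.9% were called lower with TSA in wild type cells and 27.9% in TKO cells. In wild type cells Sall1 stood at 118 and 131 CPM with DMSO and 33.6 and 23.3 CPM with TSA, and in TKO cells at 145 and 147 CPM with DMSO and 59.6 and 43.4 CPM with TSA. Its TSA libraries lay below its DMSO libraries throughout, and the log2 fold changes were -2.12 in wild type and -1.50 in TKO (edgeR adjusted p 1.46e-05 and 3.33e-05), against -0.48 and -0.29 for Sall4. Sall2 changed by -1.63 and -0.93 (edgeR adjusted p 0.000253 and 0.00674), and Sall3 by -2.98 and -2.10 (0.000124 and 0.00031). In TKO cells the call of Sall2 was lost without the first TKO DMSO library (-0.54). The differences between these paralogues and Sall4 were not tested. Per kb, Sall4 held 60.9% and 64.5% of the summed SALL level of wild type cells with DMSO and 79.1% and 86.6% of it with TSA.

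Of the 18 SOX paralogues 15 were tested, 5 rose and 6 fell with TSA in wild type cells, where 27% of all tested genes rose and 25.9% fell, and the median log2 fold change was -0.21 against 0.01 for all tested genes. The count that fell was 3 with total counts, without the first wild type DMSO library and without the second wild type TSA library. Sox15, a relative of Sox2 expressed in stem cells and muscle precursors, rose with TSA from 6.63 and 8.91 CPM to 23.6 and 26.8 CPM in wild type cells (log2 fold change 1.70, edgeR adjusted p 0.000265). In TKO cells the change of Sox15 was 1.40 (edgeR adjusted p 0.000535), and it shares 2.11% of exon bases with Mpdu1. Sox17, a factor of endoderm, rose by 2.71 and 2.00 with TSA in wild type and TKO cells (edgeR adjusted p 0.000281 and 8.34e-05). Sox1 and Sox3 belong with Sox2 to the SOXB1 group of neural progenitors. Sox1 was higher in TKO cells in both treatments (2.20 in DMSO and 1.79 in TSA, edgeR adjusted p 0.000398 and 0.00479), from 2.28 and 3.00 CPM in wild type DMSO to 13.7 and 10.5 CPM in TKO DMSO. Sox2 held 95.1% to 99.3% of the SOXB1 sum per kb in every library. Sox21 was higher in TKO cells by 1.67 in DMSO and 1.64 in TSA (edgeR adjusted p 0.00117 and 0.00172).

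Of the 13 POU paralogues 12 were tested, and 5 rose and 1 fell with TSA in wild type cells. Of all tested genes 27% rose and 25.9% fell there. The median log2 fold change of the POU paralogues was 0.91 against 0.01 for all tested genes. In TKO cells 3 rose, 1 fell and 8 were not called, where 58.7% of all tested genes were called. In wild type cells 6 of 12 were called in either direction, where 52.8% of all tested genes were called, so the share lies near that of all genes. The count that rose was 2 without the first wild type DMSO library or the second wild type TSA library. Pou2f1, which encodes the widely expressed OCT1, was the gene that fell. It went from 327 and 308 CPM to 198 and 166 CPM in wild type cells (log2 fold change -0.80, edgeR adjusted p 0.000936), and its change in TKO cells was -1.14 (7.39e-05). Of its exon bases 22.2% lie in exons of Cd247, so its counts are uncertain. Pou4f1, a factor of sensory neurons, was higher with TSA (0.83 in wild type and 0.72 in TKO) and higher in TKO cells (1.22 in DMSO and 1.11 in TSA), from 8.06 and 7.53 CPM in wild type DMSO to 32.9 and 27.0 CPM in TKO TSA. Pou5f1 held 93.4% and 93.7% of the summed POU level per kb in wild type DMSO and 84.0% and 85.6% in TKO TSA.

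**Figure D4:**
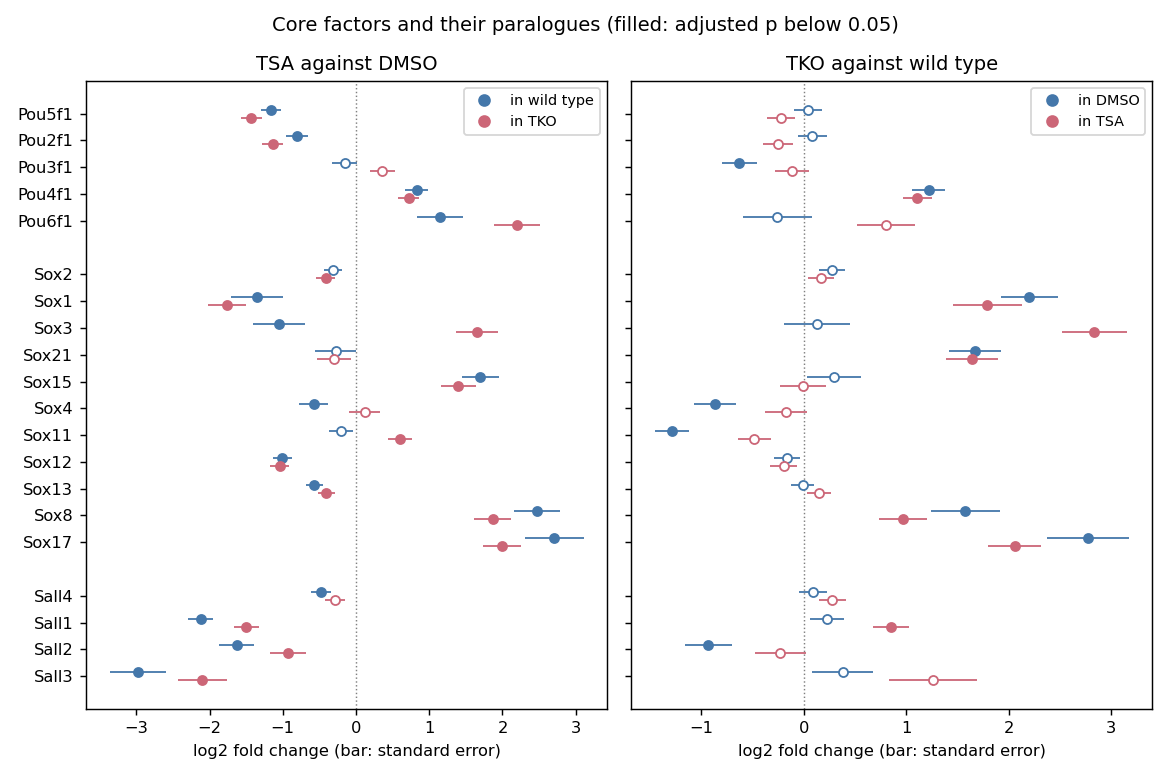
Log2 fold changes with standard errors of Pou5f1, Sox2, Sall4 and those of their paralogues plotted here, for TSA against DMSO and for TKO against wild type, filled where the adjusted p is below 0.05. Sall1, Sall2 and Sall3 lie further left than Sall4 under TSA (-2.12, -1.63 and -2.98 against -0.48 in wild type cells), while SOX paralogues lie on both sides of 0.

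Targets of the factors were described from a list of 32 genes known to be bound or activated by OCT4, SOX2, NANOG or SALL4, of which 32 were tested. With TSA in wild type cells 25 of the 32 were lower, 1 was higher and 6 were not called, with a median log2 fold change of -1.01 against 0.01 for all tested genes, of which 25.9% were called lower. In TKO cells 27 were lower, 1 was higher and 4 were not called, with a median of -1.16 against 0.04 for all tested genes, of which 27.9% were called lower. With total counts 21 and 24 of the 32 were called lower. The list was chosen with earlier results of these data known, so its direction is no independent evidence.

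Lefty1 and Lefty2, secreted Nodal antagonists, were the targets that fell furthest. Lefty1 went from 358 and 316 CPM to 21.2 and 7.68 CPM in wild type cells, and from 389.7 and 334 CPM to 5.21 and 1.44 CPM in TKO cells. Its DMSO libraries lay far above its TSA libraries in both genotypes, and the changes on the log2 scale were -4.53 and -6.78 (edgeR adjusted p 1.63e-05 and 2.19e-06). Fgf4, a growth factor gene switched on by OCT4 and SOX2 together, went from 147 and 218 CPM to 30.9 and 23.4 CPM in wild type cells and from 242 and 312 CPM to 56.8 and 55.8 CPM in TKO cells. The change of Fgf4 with TSA was -2.75 in wild type and -2.30 in TKO cells (edgeR adjusted p 8.23e-06 and 5.59e-06). Gdf3, a TGF-beta family ligand, changed by -2.41 and -2.99, and Tet1, which oxidises methylcytosine, by -2.18 and -2.76. Klf5, Dppa5a and Jarid2 were not called in either genotype.

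Dppa3, a maternal factor gene, was the target that went the other way. It went from 21.3 and 28.5 CPM to 62.1 and 78.5 CPM in wild type cells, and from 28.3 and 32.4 CPM to 90.7 and 159 CPM in TKO cells. Every TSA library of Dppa3 was above every DMSO library, by 1.50 and 2.04 on the log2 scale (edgeR adjusted p 0.000482 and 3.88e-05).

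In DMSO 8 of the 32 targets were higher in TKO cells and 24 were not called, with a median log2 fold change of 0.24 against -0.01 for all tested genes, of which 9.62% were called higher. That count was 3 without the first wild type DMSO library and 2 without the second TKO DMSO library. Tbx3, a T-box factor gene, rose from 17.6 and 22.0 CPM in wild type DMSO to 40.8 and 48.6 CPM in TKO DMSO (log2 fold change 1.18, edgeR adjusted p 0.00166). Prdm14, which represses methyltransferase genes in naive cells, rose from 14.1 and 18.6 CPM to 30.0 and 39.4 CPM (1.09, edgeR adjusted p 0.00264). Both passed in all 8 fits that left out a library. Klf4, Tcl1, Esrrb, Zfp42, Nr5a2 and Fgf4 were the other 6. Each of these calls ended without the second TKO DMSO library (0.40 to 0.68). Those of Klf4, Tcl1, Esrrb, Zfp42 and Fgf4 also ended without the first wild type DMSO library (0.32 to 0.76), and that of Nr5a2 without the second (0.57). Under TSA 8 targets were higher and 6 lower in TKO cells, against 10% and 8.38% of all tested genes, the targets' median being -0.07, and without the second TKO TSA library 4 were higher and 3 lower. Without the first wild type TSA library 4 were higher and 2 lower.

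**Figure D5:**
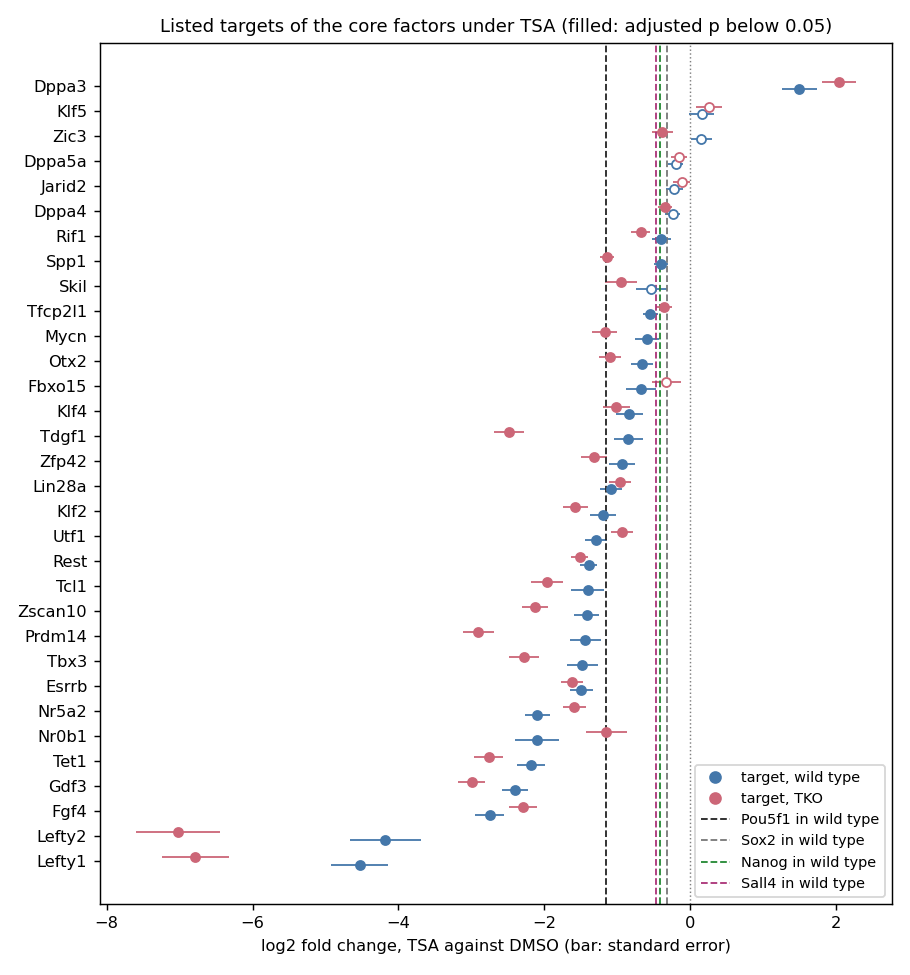
Log2 fold changes with TSA of the 32 listed targets, with standard errors, in wild type and TKO cells, filled where the adjusted p is below 0.05, and dashed lines for the 4 core genes in wild type cells. Lefty1 and Lefty2 lie furthest left, Dppa3 lies to the right at 1.50 and 2.04, and 25 targets are called lower in wild type cells.

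Proteins that bind the core factors were described from a list of 35 genes. With TSA in wild type cells 24 were lower and 1 higher, and in TKO cells 22 were lower and 2 higher, with medians of -0.46 and -0.43, where 25.9% and 27.9% of all tested genes were lower with medians of 0.01 and 0.04. With total counts 17 and 18 were called lower, and 2 and 4 higher. Tet1, Nr0b1 and Esrrb were the lowest in wild type cells, and Nr0b1, a nuclear receptor that binds OCT4, changed by -2.10 (edgeR adjusted p 0.000246). Rbbp7, a histone chaperone gene of deacetylase complexes, was higher with TSA (0.69 and 0.58, edgeR adjusted p 0.000425 and 0.000933).

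Regulators of the core genes were described from a list of 27, of which 26 were tested. With TSA in wild type cells 14 were lower and 2 higher, and in TKO cells 14 were lower and 3 higher. Their medians were -0.25 and -0.40 against 0.01 and 0.04 for all tested genes, of which 25.9% and 27.9% were lower. With total counts 9 and 11 regulators were lower. Foxd3, a forkhead factor of the epiblast, went from 25.8 and 24.5 CPM to 2.75 and 1.97 CPM in wild type cells (log2 fold change -3.40, edgeR adjusted p 1.47e-05), and its change in TKO cells was -3.37 (4.35e-06). Nr6a1, which encodes GCNF, a repressor of Pou5f1 and Nanog in differentiating cells, went from 176 and 181 CPM to 295 and 304 CPM in wild type cells. Its TSA libraries lay above its DMSO libraries in both genotypes, and the changes were 0.74 and 1.15 (edgeR adjusted p 0.000107 and 5.17e-06). Nr5a2, an activator of Pou5f1, changed by -2.10 and -1.59 (edgeR adjusted p 1.28e-05 and 1.52e-05). Nr5a2 was also higher in TKO cells, by 0.65 in DMSO and 1.16 in TSA, the former not called without the second wild type DMSO library (0.57) or the second TKO DMSO library (0.58). Between genotypes 8 regulators were higher and 3 lower in TKO DMSO, where 9.62% and 10.7% of all tested genes were. Under TSA 6 were higher and 4 lower in TKO cells, beside 10% and 8.38%. Gata6 (2.39 in DMSO and 1.56 in TSA) and Nr2f1 (1.94 and 1.93) were higher by more than Nr5a2, and Cdx2 was lower (-2.37 and -1.94). Leaving out single libraries gave 1.49 to 2.68 for Nr2f1 in DMSO. Whether any of these regulators moves the core genes was not tested.

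Markers of other cell types moved with the same comparisons. The 10 other stem cell markers summed to 2940 to 3228 CPM with DMSO and 1496 to 1735 CPM with TSA in wild type cells, and to 3487 to 3646 CPM and 1348 to 1603 CPM in TKO cells. Of these 8 were lower with TSA in each genotype, with medians of -0.89 and -0.98, where 25.9% and 27.9% of all tested genes were lower, and Dppa5a and Alpl were not called. With total counts 7 were lower in each genotype. Several of them are also on the list of targets. Of 18 listed trophectoderm markers 17 were in the table and 15 were tested. With TSA 12 rose in wild type cells and 3 were not called, and in TKO cells 11 rose and 4 were not called, where 27% and 30.8% of all tested genes rose. Their summed level in wild type cells was 549.98 to 799 CPM with DMSO and 1324 to 1434 CPM with TSA, and in TKO cells 115 to 166 CPM and 403 to 472 CPM. The sums are mostly Krt8 and Krt18, keratin genes that were lower in TKO cells (-3.26 and -3.15 in DMSO). Cdx2, a trophectoderm factor that represses Pou5f1 and is repressed by OCT4, went from 3.85 and 1.22 CPM to 25.0 and 21.3 CPM in wild type cells, and from 0.410 and 0.582 CPM to 7.78 and 4.33 CPM in TKO cells. Its changes with TSA were 3.16 and 3.59 (edgeR adjusted p 9.05e-05 and 0.000221). Tpbpa was at 0 in every library, and Prl3d1 had at most 3 counts in each. Of 10 neural markers tested 3 rose and 3 fell with TSA in wild type cells, and 6 rose and 2 fell in TKO cells. The neural sums were 340 to 424 CPM with DMSO and 182 to 214 CPM with TSA in wild type cells, and 293 to 320 CPM and 165 to 175 CPM in TKO cells. The median log2 fold changes of the neural markers went the other way, at 0.41 in wild type and 0.86 in TKO cells. A sum weighs abundant genes most, so it does not give the direction of the list. Of 11 mesoderm markers tested 4 rose and 1 fell in wild type cells, and 3 rose and 2 fell in TKO cells. In bulk RNA, fewer cells that express a gene and less RNA per cell cannot be told apart. The part of these markers in the fall of Pou5f1 was not tested.

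Primitive endoderm markers moved with genotype. Of 18 tested, 9 were higher and 1 lower in TKO DMSO, where 9.62% of all tested genes were higher and 10.7% lower, and their summed level was 1148 to 1328 CPM in wild type DMSO and 1536 to 1611 CPM in TKO DMSO. Gata6, which represses Nanog in primitive endoderm, was at 0.785 and 1.22 CPM in wild type DMSO and at 3.97 and 6.55 CPM in TKO DMSO (log2 fold change 2.39, edgeR adjusted p 0.00171). With TSA 4 endoderm markers were higher and 2 lower in wild type cells, and 5 were higher and 6 lower in TKO cells. Of all tested genes 27% were higher and 25.9% lower with TSA in wild type cells, and 30.8% and 27.9% in TKO cells. Fibroblast feeder markers, of which 12 of 15 were tested, moved with both TSA and genotype, beside the shares of all tested genes given above. With TSA 6 were higher and 2 lower in wild type cells (median 1.01), and 11 were higher and 0 lower in TKO cells (median 2.50), the remaining marker, Vim, at -0.27 (edgeR adjusted p 0.17). In TKO DMSO 6 were lower and 1 higher than in wild type DMSO (median -1.25), and 3 were lower without the second TKO DMSO library. Lum, a proteoglycan gene of connective tissue, had 0 to 2 counts in each DMSO library and 54 to 90 counts in each TSA library. The collagen gene Col1a1 went from 12.1 and 12.7 CPM to 13.2 and 18.5 CPM with TSA where the enzymes were intact, and from 0.684 and 0.655 CPM to 4.53 and 9.73 CPM where they were deleted. The sums of this list, mostly Vim, the gene of an intermediate filament protein, do not show these changes. They came to 346 to 449 CPM in wild type cells with DMSO and 344 to 352 CPM with TSA, and to 266 to 332 CPM and 293 to 364 CPM in TKO cells. The part of these markers in the levels of the core genes was not tested.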

How the data were processed

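Total RNA was depleted of ribosomal RNA and made into strand-directional, paired-end libraries, per the labels' protocols. The authors deposited raw read counts per gene for 8 libraries with the summed exon length of each gene, and TopHat2 2.0.13, featureCounts 1.4.5-p1, edgeR 3.22.3 and the mm10 build are named in the submitters' processing notes. The annotation, the strand setting and the treatment of reads that match several places are not given in the sources used here, so genes with overlapping exons are uncertain, as are Pou5f1 and Nanog, which have pseudogene copies. Coordinates are those of the deposited table.

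The main test was edgeR 4.0.16 (R 4.3.3), after filterByExpr had kept 15822 of 23420 genes. A quasi-likelihood model with 1 mean per group was fitted to 8 libraries with TMM scaling and 4 residual degrees of freedom, and its common biological coefficient of variation was 10.3%. Tests were two-sided, p-values were adjusted by Benjamini-Hochberg over all tested genes and called below 0.05, and standard errors derived from the F statistic are approximate. An exact permutation test of 2 libraries against 2 cannot go below 0.333. Totals of 13280631 to 15542527 counts put the floor of 3 counts at 0.183 to 0.243 CPM, which covers counting error only.

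No pair of replicates agreed within sampling noise (chi-square per degree of freedom 5.28 to 12.2). In simulated counts for 15450 genes modelled on TSA in wild type cells, 80% of 100 genes changed by 1 on the log2 scale and 97.9% of 97 changed by 2 were recovered. Few genes were changed there and all shared 1 common spread, whereas 52.8% of all tested genes were called in the data. Smaller changes, such as those of Sox2, Nanog and Sall4 with TSA, were not simulated, so their rate of recovery is not known. The alternatives were DESeq2 1.42.0 and its size factors, upper quartile scaling, total counts, no filter, a filter of at least 10 CPM in 2 libraries, the replicate number as a block, and leaving out each library. The filter, the scaling and the adjustment were redone in each fit that left out a library, and these fits tested more genes than the main fit. Genes named are the members, the targeted genes, any paralogue or target with a mean of at least 1 CPM, up to 3 called genes per list, comparison and direction without overlap of libraries, and the 3 genes most like each member. The members and lists were chosen with earlier results of these data known. A few genes outside these rules were named as members of a list.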

Additional observations from a re-analysis of the deposited data

Results flagged for a closer look

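None of the 4 core genes had a TSA change that differed between genotypes. Of 181 tested genes of the lists, the core genes included, 9 did, by the edgeR interaction test that subtracts the TSA change in wild type from that in TKO. Of all tested genes 1.35% did. The lists were chosen with earlier results of these data known, so their share is no independent evidence. Among targets of the core factors, Tdgf1, a Nodal coreceptor gene, had a difference of -1.63 ± 0.28 (SE, edgeR adjusted p 0.0275), Prdm14 of -1.47 ± 0.30 (0.0445) and Spp1 of -0.74 ± 0.13 (0.0312), so each fell further in TKO cells. Sox3, the paralogue of Sox2, had a difference of 2.70 ± 0.46 (edgeR adjusted p 0.0262), from 2.78 and 3.00 CPM in wild type DMSO to 1.10 and 1.70 CPM with TSA, and from 3.62 and 2.69 CPM in TKO DMSO to 7.78 and 12.1 CPM with TSA. Dnmt3b, itself targeted in TKO cells, had a difference of 1.33 ± 0.16 (edgeR adjusted p 0.00521). Eomes, a trophectoderm and mesendoderm factor gene, had 2.79 ± 0.34 (edgeR adjusted p 0.00533), and the neural marker Nes had 1.44 ± 0.28 (0.0369). The fibroblast collagen genes Col1a1 and Col3a1 had 3.05 ± 0.53 and 4.41 ± 0.90 (edgeR adjusted p 0.0287 and 0.0438), where Col3a1 had 1 count in each TKO DMSO library, so its fitted value depends on the prior count. Of these 9 calls only that of Eomes held in each of the 8 fits that left out a library, with 2.48 to 3.04. Dnmt3b stayed called in 7 of the 8 fits (1.17 to 1.48), Col1a1 in 4 (2.39 to 3.49), Spp1 in 3 (-0.82 to -0.66), Nes in 3 (1.07 to 1.74) and Col3a1 in 2 (4.00 to 5.01). Leaving out single libraries also ended the calls of Tdgf1 (without either TKO DMSO library, the first wild type DMSO or the first wild type TSA library), Sox3 (without those 4 or the second TKO TSA library) and Prdm14 (without 6 of the 8 libraries), with values of -1.67 to -1.49, 2.35 to 2.93 and -1.65 to -1.26 in the fits where the call ended.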

How the results depend on the processing

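The fall of Pou5f1 with TSA in both genotypes and the higher level of Nanog in TKO cells in both treatments kept their direction and stayed called under all 7 other settings and in all 8 fits that left out a library. The smaller calls depended on scaling and filter. In wild type cells with TSA, Nanog was no longer called with upper quartile scaling (-0.27), total counts (-0.21) or the 10 CPM filter (-0.30), nor was Sall4 (-0.32, -0.27 and -0.36). Sox2 was called there without a filter (-0.32) and with the replicate block (-0.31). In TKO cells with TSA, Sox2 was not called with total counts (-0.27), while Nanog (-0.30) and Sall4 (-0.32) were called without a filter, and Nanog with the replicate block (-0.26). Sox2 in TKO TSA against wild type DMSO reversed to 0.026 with total counts. Leaving out single libraries gave ranges of -0.45 to -0.17 for Sox2, -0.50 to -0.34 for Nanog and -0.64 to -0.34 for Sall4 with TSA in wild type cells, and of -0.61 to -0.25, -0.42 to -0.11 and -0.45 to -0.14 in TKO cells. The ranges were -0.035 to 0.21 for Sall4 between genotypes in DMSO, -0.017 to 0.34 for Sox2 between genotypes in TSA, -0.33 to 0.024 for Sox2 in TKO TSA against wild type DMSO, and -0.29 to 0.066 for the interaction of Sox2. Apart from scaling and left-out libraries, whose construction changes the values, the cause was not tested.

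Total counts moved the median log2 fold change of all genes to 0.22 and 0.19 with TSA in wild type and TKO cells, and the share of called genes that were higher from 51.0% to 70.4% and from 52.5% to 64.4%. Upper quartile scaling gave 65.8% in wild type cells. For TKO TSA against wild type DMSO that share moved from 51.2% to 63.1%, for TKO DMSO against wild type TSA from 48.6% to 33.9%, with total counts, and for the interaction from 65.3% to 53.0% with the upper quartile. The lower calls with TSA in wild type cells numbered 4092, and 2437 with total counts. The interaction called 213 genes, against 488 without a filter, 115 with the 10 CPM filter, 394 with DESeq2 and 633 with the replicate block. Deviations of same-numbered libraries correlated at 0.0673 to 0.325 over 6 pairs of groups. With only 2 numbers and no label on what they share, the pairing was not used. Depth did not limit the 4 genes, whose precision rests on 2 libraries per group.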
